A study of Mus musculus with 3 samples.

Results

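Elastic fibres give tissues their recoil, and the genes that build them were compared in 3 primary cultures of mouse ocular pigment epithelium. The members were taken as every probe set annotated to Eln, Fbn1, Fbn2, Mfap2, Mfap4, Mfap5, Fbln1, Fbln5, Lox or Loxl1 alone. This gave 19 probe sets for 9 of the 10 genes, of 45101 probe sets and 18193 genes on the array. Fbn1 was matched to 0 probe sets and is not analysed here. The cultures were pigment epithelium of the iris (IPE), the ciliary body (CBPE) and the retina (RPE) from C57BL/6 mice aged 6 to 8 weeks, with 1 array each and no added agent or genetic change named in the labels. IPE and CBPE grew in RPMI 1640 with 10% fetal bovine serum, RPE in DMEM with 20%, and each was kept overnight without serum before RNA was taken. Iris and ciliary body were dissected and digested with Dispase, whereas the RPE came from a trypsin-treated eyecup behind the ciliary process. The number of animals behind each culture is not given in the sources used here, and the 14 days of culture are stated for CBPE and RPE.

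An elastic fibre has a core of cross-linked elastin on a scaffold of microfibrils. Fibrillins polymerise into the microfibrils, the MAGP proteins (products of Mfap2 and Mfap5) bind to them, fibulins link them to elastin, and lysyl oxidases cross-link elastin and collagen. In the eye, microfibrils with little elastin form the zonule that runs from the ciliary body to the lens, and elastic fibres form a layer of Bruch's membrane beneath the RPE.

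With 1 array per culture there is no replicate error and no test between cultures, so every value is a description of that array. Error was gauged only from how far probe sets of 1 gene disagreed with each other, as a pooled SD of their log2 differences. It was 0.49 for CBPE against IPE, 0.45 for RPE against IPE and 0.29 for RPE against CBPE, and it leaves out the spread between cultures and hybridisations. It came from signals above 100 on both arrays, so it does not cover dimmer ones, such as Eln, Mfap4 and Mfap5 in IPE. Signals are linear intensities on a common scale, and the floor below which a signal was not told from background was 14.5 (IPE), 17.3 (CBPE) and 16.8 (RPE). The IPE array had the narrowest bright range, with a 99th percentile of 2408 against 3846 in CBPE and 3247 in RPE. Medium, serum and the way the cells were isolated cannot be told apart from tissue wherever RPE is compared. IPE has no stated culture time, and its label gives above 99% cytokeratin-positive cells, against above 95% for CBPE and RPE. In comparisons with IPE these too cannot be told apart from tissue.

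The elastic fibre genes were mostly higher in CBPE and RPE than in IPE. Of the 9 measured members, CBPE exceeded IPE by at least 2-fold in 7 and was at least 2-fold below it in 1, Fbln1. Among all genes measured in that comparison, 11.8% were higher by that rule and 12.5% lower. In RPE against IPE 6 members were at least 2-fold higher and 0 lower, where 9.87% and 10.5% of all genes were. The members had a median log2 difference of 1.92 for CBPE minus IPE and of 1.82 for RPE minus IPE, where all genes had 0.04 and 0.02. In RPE against CBPE 0 members were at least 2-fold higher and 1, Eln, was lower, beside 3.75% and 4.26% of all genes, and the members' median was -0.09. By the probe sets that stand for the genes, IPE had the lowest signal for 8 of the 9 genes and the highest for Fbln1. For Mfap2, IPE and CBPE differed by less than the SD between probe sets, and another bright Lox probe set had RPE just below IPE. CBPE was highest for 5 genes and RPE for 3. For Fbn2, Fbln5 and Mfap5, however, CBPE and RPE differed by less than that SD. The other probe sets of Fbn2 and Mfap5 had CBPE and RPE in the reverse order. The comparisons share arrays, so the excess over IPE in both rests on the same IPE values. In whole cultures, fewer cells of a type and less RNA per cell cannot be told apart.

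**Figure D1:**
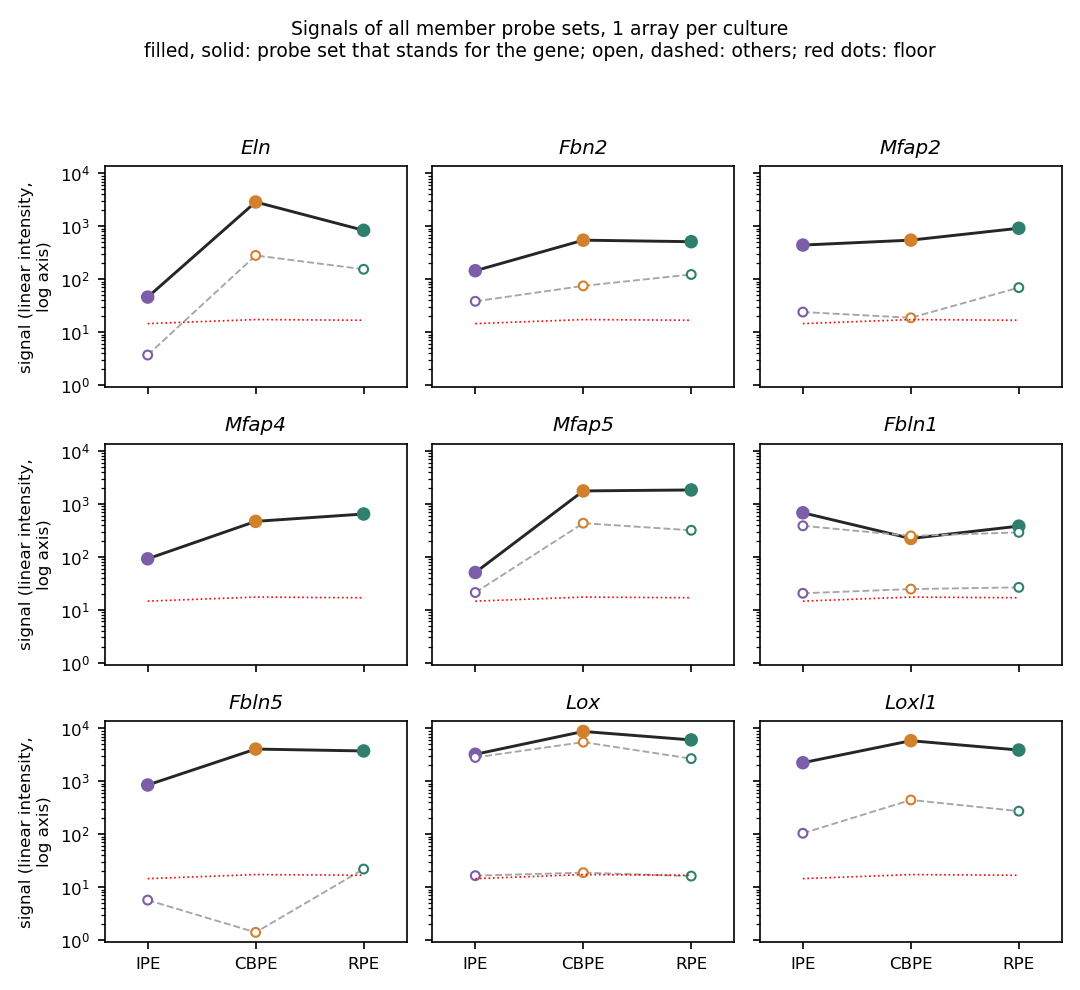
Signal (linear intensity on a log axis) of every member probe set on the IPE, CBPE and RPE arrays. Filled points joined by a solid line are the probe set that stands for the gene, open points other probe sets, and the red dotted line the floor of each array. Eln and Mfap5 have the steepest lines between IPE and the other cultures, and Fbln1 is the gene whose main line is highest in IPE.

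Elastin itself showed the widest range. Eln encodes tropoelastin, the soluble precursor that is cross-linked into the fibre core. Its brighter probe set (1420855_at) gave a signal of 46 (IPE), 2884 (CBPE) and 840.9 (RPE). IPE was thus low but above its floor, RPE was in between, and each step was larger than the SD between probe sets. That SD was measured at brighter signals than the 46 of IPE. CBPE was 62.7-fold and RPE 18.3-fold above IPE, and CBPE was 3.43-fold above RPE. Among all measured genes, the CBPE minus IPE difference of Eln had rank 6 of 12831 from the highest. The other probe set (1420854_at) gave 3.7, 281.7 and 154.4, with IPE under the floor. It kept the order of the cultures, with CBPE at least 19.4-fold and RPE at least 10.6-fold above IPE, but put CBPE 1.82-fold above RPE.

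Of the fibrillins, Fbn2 was measured, whose product is prominent in developing microfibrils. Its brighter probe set (1454830_at) had a signal of 145 (IPE), 547.5 (CBPE) and 512.7 (RPE). IPE was lowest, and the difference between CBPE and RPE, a log2 value of -0.09 in RPE minus CBPE, was within the disagreement between probe sets. CBPE was 3.78-fold and RPE 3.54-fold above IPE. The dimmer probe set (1422831_at) gave 38.3, 74.9 and 123.1, so it placed RPE above CBPE by 1.64-fold while IPE was again lowest.

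The MAGP genes had different patterns. Mfap5, which encodes MAGP-2, gave a signal of 50.4 (IPE), 1755 (CBPE) and 1830 (RPE) by its brighter probe set (1418454_at). CBPE and RPE, 34.8-fold and 36.3-fold above IPE, differed by less than the disagreement between probe sets. The other probe set (1449082_at) gave 21.1, 430.7 and 316.5, which is 20.4-fold and 15-fold above IPE, with the IPE signal near its floor. It placed CBPE above RPE, by a log2 difference of -0.44 in RPE minus CBPE that exceeds the SD of 0.29. Mfap5 had rank 15 of 12831 in CBPE minus IPE and rank 8 of 12446 in RPE minus IPE.

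Mfap2, which encodes MAGP-1, was present in all cultures and highest in RPE. Its brighter probe set (1417359_at) gave 442.5 (IPE), 548.6 (CBPE) and 920.1 (RPE). CBPE and IPE did not differ beyond the disagreement between probe sets, while RPE was 2.08-fold above IPE and 1.68-fold above CBPE. With the medians of the arrays made equal, the log2 difference in RPE minus IPE was 0.84, short of 2-fold. The dimmer probe set (1447833_x_at), whose name marks probes that can match other transcripts, gave 24, 18.7 and 69.5 and again had RPE highest. Its CBPE signal was under the 20.2 that bacterial transcripts absent from the samples reached on that array.

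Mfap4, whose product binds tropoelastin and fibrillin, had 1 probe set (1424010_at). It gave a signal of 91.5 (IPE), 466.7 (CBPE) and 642.6 (RPE). Both CBPE and RPE were far above IPE, by 5.10-fold and 7.02-fold, and RPE was 1.38-fold above CBPE, a log2 difference of 0.46 that exceeds the SD of 0.29. No other probe set could check this order.

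The fibulins went in opposite directions. Fbln5 encodes the fibulin that ties tropoelastin to microfibrils and cells and is required for elastic fibre formation. By its bright probe set (1416164_at) its signal was 852.9 (IPE), 4076 (CBPE) and 3752 (RPE). CBPE was 4.78-fold and RPE 4.40-fold above IPE, and CBPE and RPE differed by less than the disagreement between probe sets. The other Fbln5 probe set (1446377_at) was under the floor in IPE and CBPE and at 22 in RPE, so it did not follow the bright one.

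Fbln1 encodes a fibulin found in elastic fibres and basement membranes, and IPE was its highest culture. The brightest probe set (1451119_a_at) gave 677.7 (IPE), 221.6 (CBPE) and 379.1 (RPE), so IPE was 3.06-fold above CBPE and 1.79-fold above RPE. A further probe set (1422540_at) had the same order at 384.5, 247.8 and 289, but the neighbouring values there were within the disagreement between probe sets and IPE was 1.55-fold above CBPE. The dimmest (1439688_at), at 20.4, 24.5 and 26.4, was near the floor and had IPE lowest. Averaged over its 3 probe sets on the log2 scale, Fbln1 was -0.66 in CBPE minus IPE, short of 2-fold.

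Promoter sequence from RefSeq on GRCm38.p6 was at hand for 4 of the 10 members, and that of the 3 measured ones, Fbln5, Fbln1 and Mfap2, is shown because each had another order of cultures. Each run is the 250 bases before the outermost start listed, 5′ to 3′ on the gene's strand, at chr12:101819120-101819369 (minus strand) for Fbln5, chr15:85205699-85205948 (plus strand) for Fbln1 and chr4:141010174-141010423 (plus strand) for Mfap2. Capitals mark matches, on either strand, to 4 motifs: the TATA box TATAAA, the GC box GGGCGG, the AP-1 motif TGANTCA and the SMAD box CAGAC.
Fbln5: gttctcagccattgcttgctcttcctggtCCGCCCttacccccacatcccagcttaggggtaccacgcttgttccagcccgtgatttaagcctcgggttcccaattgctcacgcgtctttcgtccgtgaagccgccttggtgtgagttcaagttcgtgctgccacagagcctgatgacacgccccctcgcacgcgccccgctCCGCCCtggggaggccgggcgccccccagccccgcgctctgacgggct
Fbln1: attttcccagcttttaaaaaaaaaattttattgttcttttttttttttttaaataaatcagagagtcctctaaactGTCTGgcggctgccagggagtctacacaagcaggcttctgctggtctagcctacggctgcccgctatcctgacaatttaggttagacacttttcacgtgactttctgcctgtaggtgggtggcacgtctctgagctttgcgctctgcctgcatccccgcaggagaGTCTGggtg
Mfap2: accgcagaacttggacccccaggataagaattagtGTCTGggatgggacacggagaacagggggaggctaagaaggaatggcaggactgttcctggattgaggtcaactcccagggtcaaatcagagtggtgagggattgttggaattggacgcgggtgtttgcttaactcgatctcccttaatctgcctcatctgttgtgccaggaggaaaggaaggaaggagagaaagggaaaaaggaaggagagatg
Fbln5 held 2 GC boxes, both on the opposite strand, from base -221 to -216 and from -48 to -43 before its start, and no SMAD box. Fbln1 held 2 SMAD boxes, from -174 to -170 and from -9 to -5, and Mfap2 held 1, from -215 to -211. No match overlapped another, and TATAAA and TGANTCA had no match in these windows. Of 32851 such windows of all genes, 32.7% held the GC box, 42.2% the SMAD box, 12.4% TATAAA and 6.75% TGANTCA. These matches are letters in a window and were not tied to the signals.

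The lysyl oxidase genes were bright in all 3 cultures. Lox encodes the copper enzyme that starts the cross-linking of elastin and collagen. Its brightest probe set (1416121_at) gave 3245 (IPE), 8766 (CBPE) and 6067 (RPE), at percentiles 99.4, 99.7 and 99.5 of the non-control probe sets of these arrays. CBPE was 2.70-fold above IPE and 1.44-fold above RPE, and RPE was 1.87-fold above IPE. The next probe set (1448228_at) gave 2829, 5506 and 2688, with CBPE 1.95-fold above IPE and 2.05-fold above RPE, while IPE and RPE differed by less than the disagreement between probe sets. The third (1437903_at) lay near the floor at 16.5, 18.8 and 16.2. CBPE was highest by both bright probe sets, while the excess of RPE over IPE rested on the brightest.

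Loxl1 encodes the lysyl oxidase relative that is bound to elastic fibres through fibulin-5. Its brighter probe set (1451978_at) gave 2250 (IPE), 5863 (CBPE) and 3905 (RPE). The other (1436063_at) gave 104.4, 445.1 and 273.3 and kept that order, with each step beyond the disagreement between probe sets. CBPE was 2.61-fold above IPE by the brighter and 4.26-fold by the dimmer, and RPE was 1.74-fold and 2.62-fold above IPE. For the bright probe sets of Lox and Loxl1 the scaling mattered. After quantile normalization, which gives the 3 arrays the same distribution, their log2 differences in CBPE minus IPE were 0.58 and 0.67 instead of 1.43 and 1.38, below 2-fold. With the mean of its 3 probe sets Lox was at 0.86 there. In RPE minus IPE the quantile-normalized differences were 0.34 and 0.35 instead of 0.90 and 0.80.

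**Figure D2:**
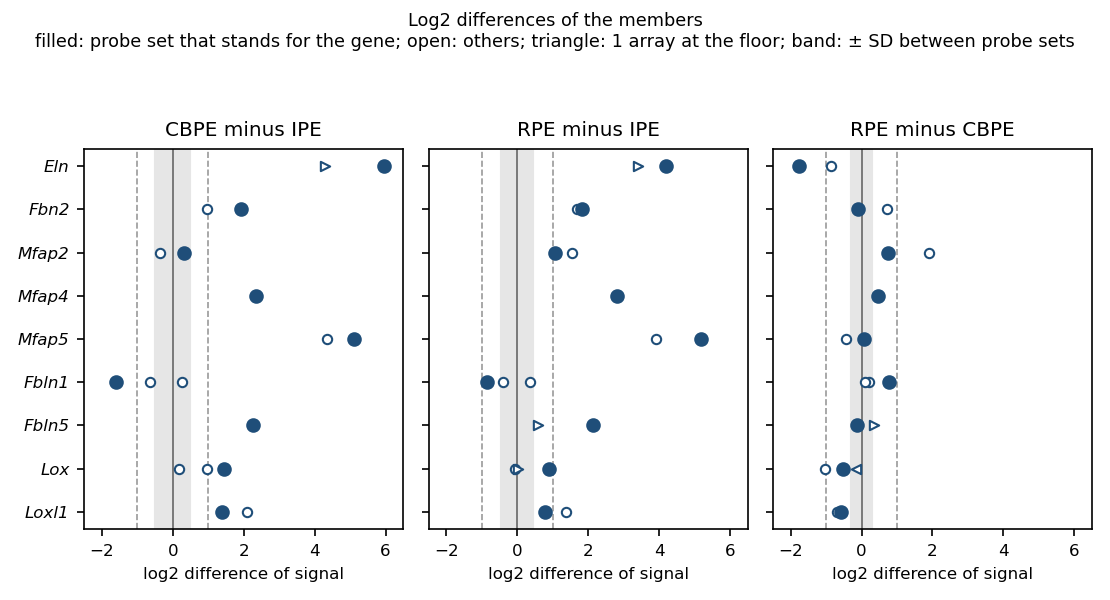
Log2 difference of signal (horizontal axis) for each member gene in CBPE minus IPE, RPE minus IPE and RPE minus CBPE. Filled points are the probe set that stands for the gene, open points the others, triangles differences with 1 array at the floor, dashed lines 2-fold, and the grey band the SD between probe sets (0.49, 0.45 and 0.29). In RPE minus CBPE Eln is the filled point beyond 2-fold, at -1.78.

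Between CBPE and RPE the members' differences spanned a narrower range. The log2 difference in RPE minus CBPE ran from -1.78 for Eln to 0.77 for Fbln1, while in CBPE minus IPE the range was from -1.61 for Fbln1 to 5.97 for Eln. Eln, Loxl1 and Lox were lower in RPE than in CBPE beyond the SD of 0.29, at -1.78, -0.59 and -0.53. Fbln1, Mfap2 and Mfap4 were higher beyond it, at 0.77, 0.75 and 0.46. Fbln5, Fbn2 and Mfap5, at -0.12, -0.09 and 0.06, were within it. The other probe sets of Fbn2 and Mfap5 were beyond it, at 0.72 and -0.44, and that of Mfap2 was at 1.89. For Fbn2 and Mfap2 these other probe sets were dimmer in CBPE than the signals the SD covers. After quantile normalization the Lox value was -0.24, inside that SD. By the probe sets that stand for the genes, Eln was the member beyond 2-fold. By their other bright probe sets, Eln was 1.82-fold and Lox 2.05-fold lower in RPE than in CBPE.

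**Figure D3:**
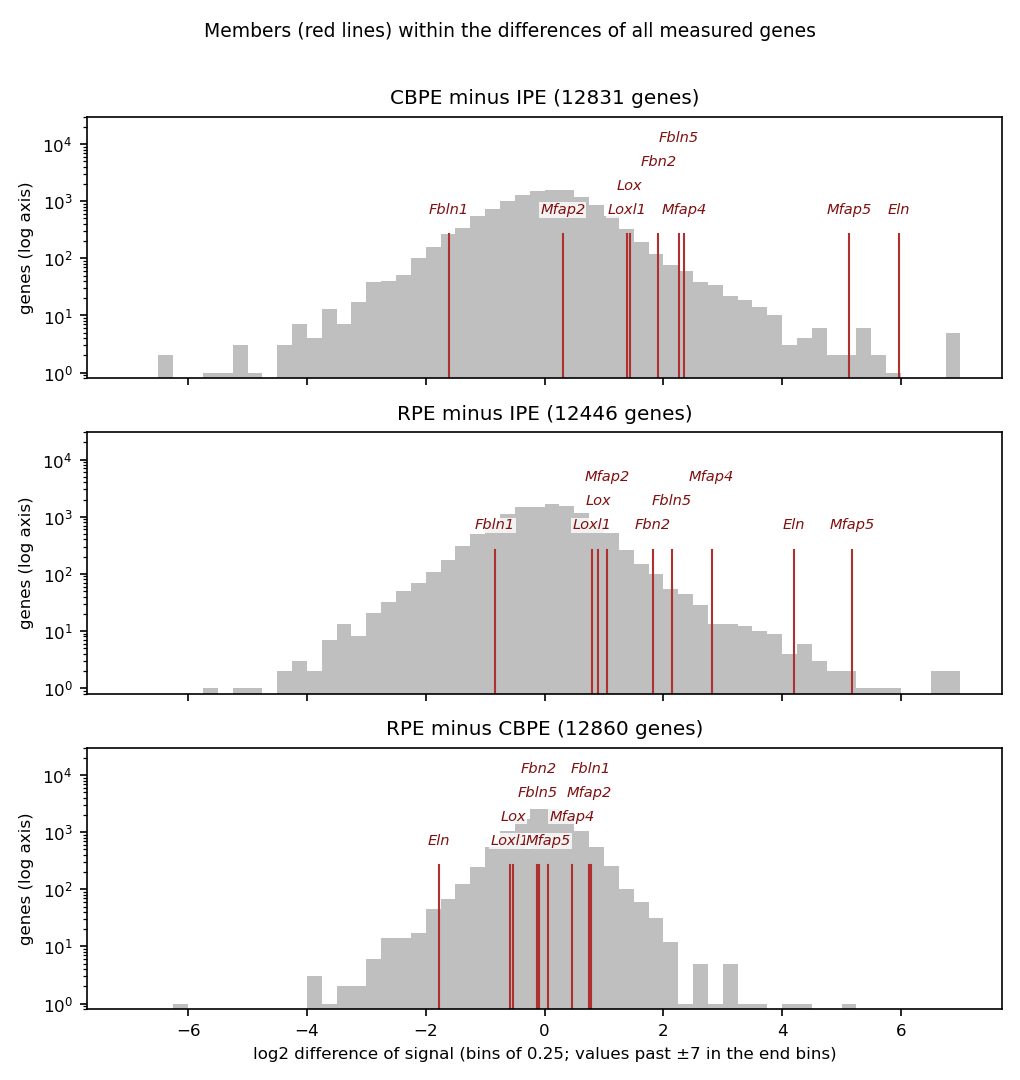
Number of genes (log axis) by log2 difference of signal, in bins of 0.25, for the 12831, 12446 and 12860 genes measured in CBPE minus IPE, RPE minus IPE and RPE minus CBPE, with the members as red lines. Eln and Mfap5 lie in the far right tail of both comparisons with IPE. In RPE minus CBPE Fbln5, Fbn2 and Mfap5 lie near the centre, at -0.12, -0.09 and 0.06. The other members lie further out there, from -1.78 for Eln to 0.77 for Fbln1.

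Equal weight could not be given to every second probe set, since many were dim. Of the 10 member probe sets that did not stand for their gene, 9 passed the floor on the CBPE or the IPE array, and 7 of these had the direction of the brighter one. In RPE against IPE the numbers were 8 of 10 and in RPE against CBPE 7 of 10. Among those with signals above 100 on both arrays, 3 of 3, 2 of 3 and 4 of 5 had the same direction.

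**Figure D4:**
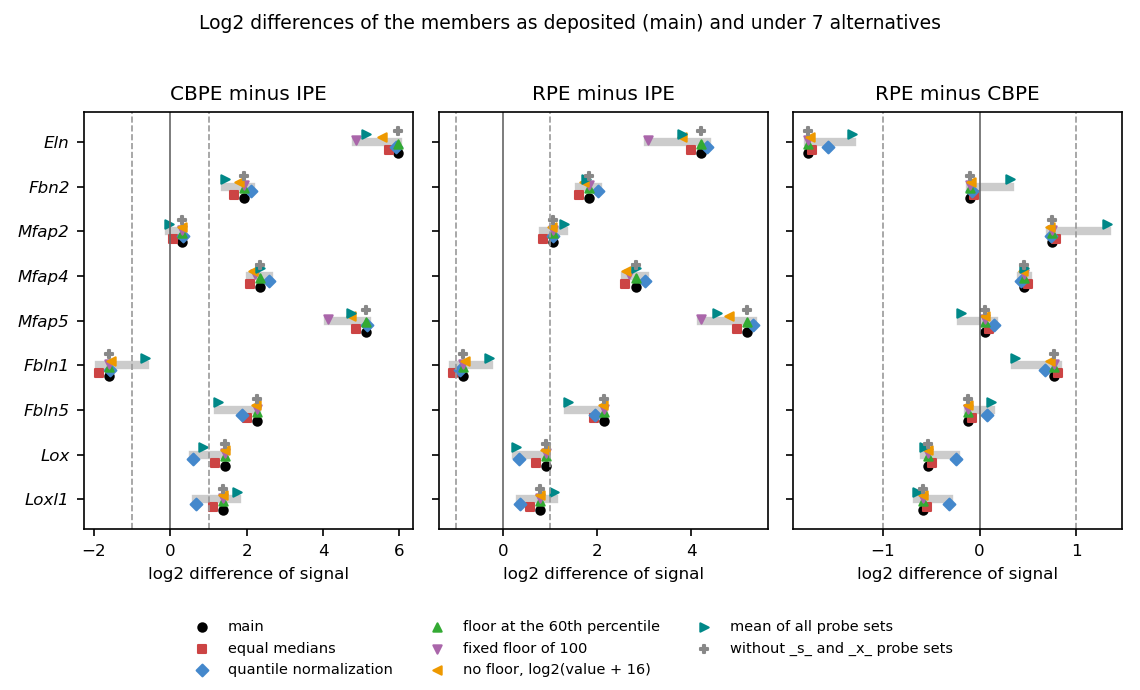
Log2 difference of signal for each member as deposited (black circles) and under 7 alternatives of scaling, floor and choice of probe set, with dashed lines at 2-fold. Eln and Mfap5 stay above 3 in CBPE minus IPE and RPE minus IPE, whereas Lox and Loxl1 move across the 2-fold line in CBPE minus IPE after quantile normalization.

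The wider pathway differed at shares near those of all genes in both comparisons with IPE. A list of 39 partner genes holds other fibulins, emilins, latent TGF-β binding proteins, lysyl oxidase relatives, matrix proteoglycans, receptors and processing enzymes. Of the 33 measured, CBPE exceeded IPE by at least 2-fold in 5 and was below it in 3, which is 15.2% and 9.09% beside 11.8% and 12.5% of all genes, with a median log2 difference of 0.15. In RPE against IPE 3 were higher and 4 lower, or 9.09% and 12.1% beside 9.87% and 10.5%, with a median of -0.18. In RPE against CBPE 1 was higher and 3 lower, or 3.03% and 9.09% beside 3.75% and 4.26%, with a median of -0.32. Efemp2, Mfap1a, Loxl2 and Adamts17 had no named probe set, and Adamtsl2 and Thsd4 were under the floor on all 3 arrays.

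Ltbp2, a latent TGF-β binding protein gene whose product associates with microfibrils, was at 248 (IPE), 2090 (CBPE) and 1401 (RPE). The proteoglycan gene Bgn was at 3628, 10204 and 8512, and Emilin2, of the elastin interface family, at 32.9, 119.8 and 138.5. These 3 were higher in both CBPE and RPE than in IPE, as most members were. Fbln7 went the other way, at 503.7 (IPE), 102.3 (CBPE) and 65 (RPE), and so did the integrin gene Itgb1, at 1959, 926.2 and 907.1. Like Fbln1, both had IPE highest, but their lowest signal was in RPE and that of Fbln1 in CBPE.

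Further fibulins lay close together across cultures: Fbln2 was at 931.9, 932 and 1087 and Efemp1 at 3486, 4365 and 3068. The other lysyl oxidase relatives with probe sets, Loxl3 and Loxl4, differed by at most 1.37-fold and 1.28-fold between cultures. Adamtsl4, which acts on fibrillin microfibrils of the zonule, was at 138.9, 322 and 187.1, highest in CBPE by 2.32-fold over IPE. Atp7a, which supplies copper to lysyl oxidases, was 1.94-fold lower in CBPE than in the iris culture, and Bmp1, whose product releases the Lox propeptide, 1.33-fold lower.

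The integrin gene Itgb3 was 4.71-fold above IPE in CBPE, but its IPE signal of 14.6 was at the edge of the floor. Itgb3 and Itga5 were also lower in RPE than in CBPE, by 3.42-fold and 2.80-fold. The proteoglycan gene Vcan was lowest in CBPE, at 225.5, with 484.1 for IPE and 565.8 for RPE. Dcn was lowest in RPE, at 2707, with 5566 for IPE and 6163 for CBPE. The transglutaminase gene Tgm2, whose product cross-links matrix proteins, had 3.26-fold less signal in RPE than in IPE.

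A list of 15 genes holds enzymes that can degrade elastin and their inhibitors. Of 12 measured, CBPE was at least 2-fold above IPE in 7 and below it in 0, or 58.3% and 0% beside 11.8% and 12.5% of all genes, with a median log2 difference of 1.18. Of 11 measured in RPE against IPE 3 were higher and 0 lower, or 27.3% and 0% beside 9.87% and 10.5%, with a median of 0.78. Of 12 in RPE against CBPE 0 were higher and 3 lower, or 0% and 25% beside 3.75% and 4.26%. Mmp12, the macrophage elastase gene, was at 78.3 (IPE), 618.4 (CBPE) and 176.9 (RPE). Ctsk, which encodes cathepsin K, was at 226.2, 813.4 and 1090, and Ctss, which encodes cathepsin S, at 92.3, 347.2 and 58.5. The 4 inhibitor genes above the floor were lowest in IPE and highest in CBPE. Timp1 was at 1075, 5821 and 3424, Timp3 at 1297, 5102 and 2249, and Cst3, which encodes cystatin C, at 2824, 7115 and 4854. Timp2 was at 3700, 5119 and 4046, short of 2-fold. Not all the enzymes followed: Ctsk was highest in RPE, and Cela1 was at 53 (IPE), 47.1 (CBPE) and 34.5 (RPE). Mmp14 was also highest in RPE, at 850.7, 1272 and 1621, and Mmp2 lowest there, at 2532, 2790 and 2092. Ctsl differed by at most 1.69-fold. The 7 higher in CBPE include Mmp7, at 29.5 there and under the floor in IPE, a bound of 2.03-fold. With the floor at the 60th percentile the count was 6. Of the leukocyte markers, CBPE was at least 2-fold above IPE in 6 of 8 measured, or 75% beside 11.8% of all genes. RPE was below CBPE in 7 of 8, or 87.5% beside 4.26%. RPE was above IPE in 1 of 6 of these markers, or 16.7% beside 9.87%. Their summed signal was 242 (IPE), 1945 (CBPE) and 384.3 (RPE), with Ptprc and Itgam under the floor on all 3 arrays, and their part in the result was not tested.

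Cells other than pigment epithelium also make elastic fibres, so their markers are given beside the members. All 10 fibroblast markers were above the floor on the 3 arrays. CBPE was at least 2-fold above IPE in 5 of them and below it in 1. That is 50% and 10%, beside 11.8% and 12.5% of all genes. RPE was above IPE in 3 of the 10 markers and below it in 2, or 30% and 20% beside 9.87% and 10.5%. Their summed signal was 24959 (IPE), 53127 (CBPE) and 39238 (RPE). Smooth muscle and pericyte markers had CBPE at least 2-fold above IPE in 4 of 9 measured and below it in 2, or 44.4% and 22.2%. RPE was above IPE in 3 of 8 and below it in 3, or 37.5% each way. The summed signal of this list was 11827, 27390 and 17511, and without Acta2 6331, 13090 and 7742. Within that list the pericyte gene Rgs5 was at 10.4 in IPE, under the floor, 3974 in CBPE and 1416 in RPE. Acta2, Tagln, Cnn1 and Cspg4 had the same order of cultures. The smooth muscle gene Myh11 was highest in IPE, at 99.4 against 22.1 and 40, and so were Des and Mylk. Kcnj8 passed the floor in CBPE alone, at 27.3, and Abcc9 was under it on all 3 arrays.

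Tendon markers summed to 35.3, 4288 and 2038, nearly all from Tnmd, at 0.9 (IPE, under the floor), 4176 (CBPE) and 1973 (RPE). These have the order of Eln, with CBPE highest, RPE next and IPE lowest. The sums of the fibroblast, smooth muscle and pericyte, leukocyte, keratin, partner, and enzyme and inhibitor lists have that order too. For the partner list it rested on Bgn, the gene with the largest signal there. Without Bgn the partner sums were 34248 (IPE), 41685 (CBPE) and 32095 (RPE), with RPE lowest. Of 3 tendon markers, CBPE was at least 2-fold above IPE in 3 and RPE in 1. That is 100% and 33.3%, beside 11.8% and 9.87% of all genes. Skeletal muscle markers summed to 67.6, 1455 and 1472, with Ckm and Myog under the floor on all 3 arrays. Most of the CBPE sum was Myh2, at 32.8 (IPE), 1363 (CBPE) and 808.8 (RPE), and without it the sums were 34.8, 91.8 and 662.7. Of 4 measured in CBPE against IPE 3 were at least 2-fold higher, and of 5 in RPE against IPE 5 were. These are 75% and 100%, beside 11.8% and 9.87% of all genes, and 0 were lower in either. Of 5 measured in RPE against CBPE 4 were at least 2-fold higher and 0 lower. That is 80% and 0%, beside 3.75% and 4.26% of all genes. Endothelial markers summed to 829.1, 1580 and 314.8, with Vwf under the floor throughout. Most of this was Emcn, and without it the sums were 84, 465.2 and 103.6, with IPE lowest. CBPE was at least 2-fold above IPE in 6 of 8 endothelial markers measured, and RPE was below CBPE in 5 of 8. These are 75% and 62.5%, beside 11.8% and 4.26% of all genes. The part of these cell types in the members' differences was not tested.

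The labelled cell type was checked too. Of 10 pigment epithelium markers measured in CBPE against IPE 9 were at least 2-fold lower in CBPE and 0 higher. Of 9 in RPE against IPE 9 were lower in RPE. These are 90% and 100%, beside 12.5% and 10.5% of all genes. The summed signal of the markers was 5971 (IPE), 689.9 (CBPE) and 1802 (RPE), the reverse of the order of Eln. Rpe65 and Lrat, of the visual cycle, were under the floor on all 3 arrays, including RPE, where the label gives above 95% cytokeratin-positive cells. The 6 keratins listed had no common order. Krt18 was at 144.1 (IPE), 422.4 (CBPE) and 218.6 (RPE) and Krt8 at 17.4, 95.3 and 26.2, both highest in CBPE. Krt19 was highest in IPE, at 39.9 against 25.8 in CBPE and a value under the floor in RPE. Krt5 and Krt7 passed the floor in RPE alone, at 21.6 and 21.9, and Krt14 was under it in all 3. In RPE against IPE 0 of 5 keratins measured were at least 2-fold higher and 1 was lower. That is 0% and 20%, beside 9.87% and 10.5% of all genes. For the Actb control, the signal at the 3′ end over that at the 5′ end was 1.50 (IPE), 2.26 (CBPE) and 2.25 (RPE), so this control set IPE apart as the members did, and its part was not tested.

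**Figure D5:**
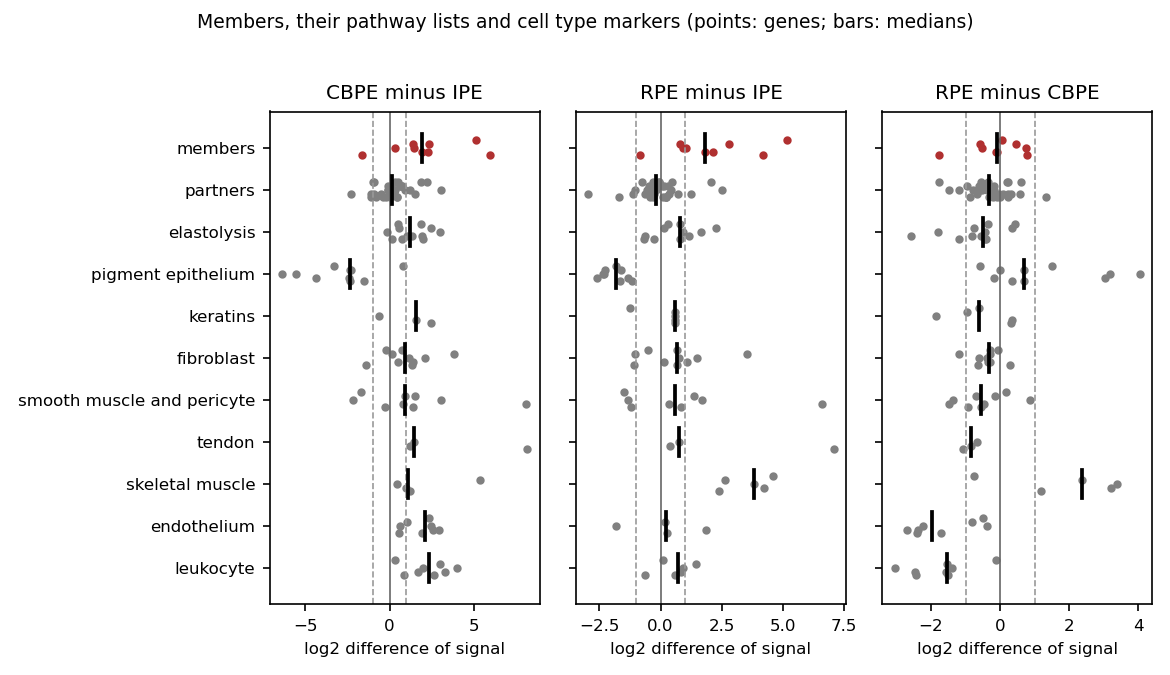
Log2 difference of signal of each gene (points) and list median (bars) for the members, the partner genes, the elastin-degrading enzymes with their inhibitors, and 8 marker lists, in CBPE minus IPE, RPE minus IPE and RPE minus CBPE. The members' medians are 1.92, 1.82 and -0.09, and those of the partner genes 0.15, -0.18 and -0.32.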

How the data were processed

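The deposited table holds linear intensity values for 1 array per culture, from biotin-labelled RNA made with an oligo-dT primer per the labels' protocols. No source used here names the summary software. Each array had been scaled by the authors to a 2% trimmed mean of 100.001, which was kept.

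Probe sets were named through the platform annotation of 2016, updated to RefSeq symbols by gene identifier: 34958 had 1 gene, 932 had several and were left unnamed, and 9160 were not listed. The floor was the 50th percentile of the non-control probe sets of each array, and dimmer signals were raised to it ahead of the log2 step. The probe set brightest by mean log2 over the 3 arrays stood for its gene. A gene counted as measured when either array of a comparison passed the floor, and as different from 2-fold, where 1 array at the floor makes the fold a bound. The SD between probe sets used genes with signals above 100 on both arrays (1666, 1773 and 1693 genes in CBPE against IPE, RPE against IPE and RPE against CBPE). Arrays have no depth in counts, and the number of arrays limits the precision.

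By the rule for named genes all members are named, and partner, enzyme and inhibitor genes at least 2-fold different may be. Fbln2, Efemp1, Loxl3, Loxl4, Atp7a, Bmp1, Timp2, Cela1, Mmp2, Mmp14, Ctsl and the single cell type markers were named after their values were seen. Members and lists were chosen with earlier results of these data known. Fold calls were tested on simulated data, with changes placed in bright genes and noise below the SD between probe sets against IPE. This does not show how the calls behave for dim genes or at that SD. Calculations used Python 3.11.15, numpy 2.4.6, pandas 2.3.3 and scipy 1.17.1.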

Additional observations from a re-analysis of the deposited data

How the results depend on the processing

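Under 7 alternatives (equal medians, quantile normalization, a floor at the 60th percentile or at 100, no floor with log2(value + 16), the mean of all probe sets, and no _s_ or _x_ probe sets), 189 member differences were recomputed. Of these, 8 crossed the 2-fold line and 5 changed sign, 0 of the latter among differences of at least 2-fold. Members at least 2-fold higher numbered 5 to 7 in CBPE against IPE and 5 to 7 in RPE against IPE. The 5 in CBPE against IPE came with quantile normalization, where 1709 of 12826 genes were higher. The 5 in RPE against IPE came with equal medians, where 782 of 12446 genes were higher. With equal medians 1 of 9 members was lower in RPE than in IPE, beside 1920 of 12446 genes. In CBPE against IPE 7 of 33 partner genes were then lower, beside 2369 of 12831 genes. With that scaling all genes had a median of -0.22 for CBPE minus IPE and -0.20 for RPE minus IPE, and 28.5% and 28.9% of the different genes were higher, against 48.5% in both as deposited. With the fixed floor of 100, 3 of 30 partner genes were higher in CBPE than in IPE, beside 742 of 7556 genes. With the mean of all probe sets 0 members were lower in CBPE than in IPE, beside 1126 of 12850 genes. In RPE against CBPE 1 member, Mfap2, was then higher and 0 partner genes lower, beside 268 and 369 of 12913 genes. The members' median in RPE minus CBPE reversed, to 0.076 after quantile normalization and 0.11 when probe sets were averaged, both close to 0. The cause was not tested. The elastin-degrading enzymes and inhibitors were given the same alternatives after the data were seen, and each count stayed within 1.5 times. No paired analysis was possible because each culture has 1 array. Dim probe sets such as the third of Lox, near the floor, limit what signal over background can show.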
